A study of Arabidopsis thaliana with 12 samples.

Results

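The 6 nuclear genes described here act in building the photosynthetic membrane of the Arabidopsis thaliana chloroplast: LPA19, CCB3, AT1G49380, NdhS, NdhN and CRR41. They were chosen by function through the platform annotation, with earlier results of these data known. Each lies on 1 probe that carries no other gene. These are 6 of the 692 probes with 1 gene, among 3439 probes in all. Total RNA of 6 toc120 mutant samples and 6 wild-type (WT) samples, all labelled Columbia 0, was measured on 12 arrays. TOC120 is a receptor on the chloroplast surface that takes part in importing proteins made in the cytosol. The labels describe import in the mutant as impaired, and the comparison asks how transcript levels in the mutant depart from those in WT. The sources used here do not state the allele, tissue, plant age or growth conditions. The labels do not say that the samples came from separate plants, so p-values measure only the spread between samples, which may be technical.

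The thylakoid membrane of the chloroplast holds the photosystems, the cytochrome b6f complex and the NADH dehydrogenase-like (NDH) complex, which returns electrons from ferredoxin to the plastoquinone pool in cyclic electron flow. Each complex combines subunits encoded in the plastid with subunits encoded in the nucleus, and nuclear assembly factors put them together and insert heme and other cofactors. The proteins of the 6 genes are therefore themselves made in the cytosol and brought in across the envelope.

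The deposited intensities run from 0 to 100 on a linear scale. Array totals were 2641 to 3553 for WT and 2688 to 3686 for toc120, and array medians 0.151 to 0.157 and 0.188 to 0.278. Totals overlapped between genotypes, but every toc120 median was above every WT median. Because the arrays differed in scale, changes are given after quantile normalisation, as log2(value + 0.0261), where the median change of all probes was 0. Quantile normalisation removes the difference in medians between genotypes, whether technical or biological, and which it was was not tested. Values given as deposited, or with every array set to the same median, are not centred, and the median change of all probes was 0.23 and -0.04 there. Arrays with neighbouring label numbers (1 and 2, 3 and 4, 5 and 6) were the most alike within a genotype, so they were averaged, which leaves 3 pair means per genotype. No 1-gene probe carries TOC120 or any of the 15 fixed markers of green tissue, root and flower, so the genotype and the tissue were not checked against markers.

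The 6 genes fell into those that gave a signal and those that did not. LPA19, CCB3 and NdhS were above 0 on all 12 arrays. NdhN was above 0 on 4 arrays, and AT1G49380 and CRR41 were listed at 0 on all 12. Of all 3439 probes, 150 (4.36%) were listed at 0 on every array and 2512 (73.0%) were above 0 on every array. In toc120, LPA19 was lower than in WT and passed the test. NdhS (lower) and CCB3 (higher) did not pass in the same fit. They passed with the 12 arrays as separate samples and under some other settings. The fit of separate samples treats neighbouring arrays as independent although they were the most alike, so its p-values can be too small.

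**Figure D1:**
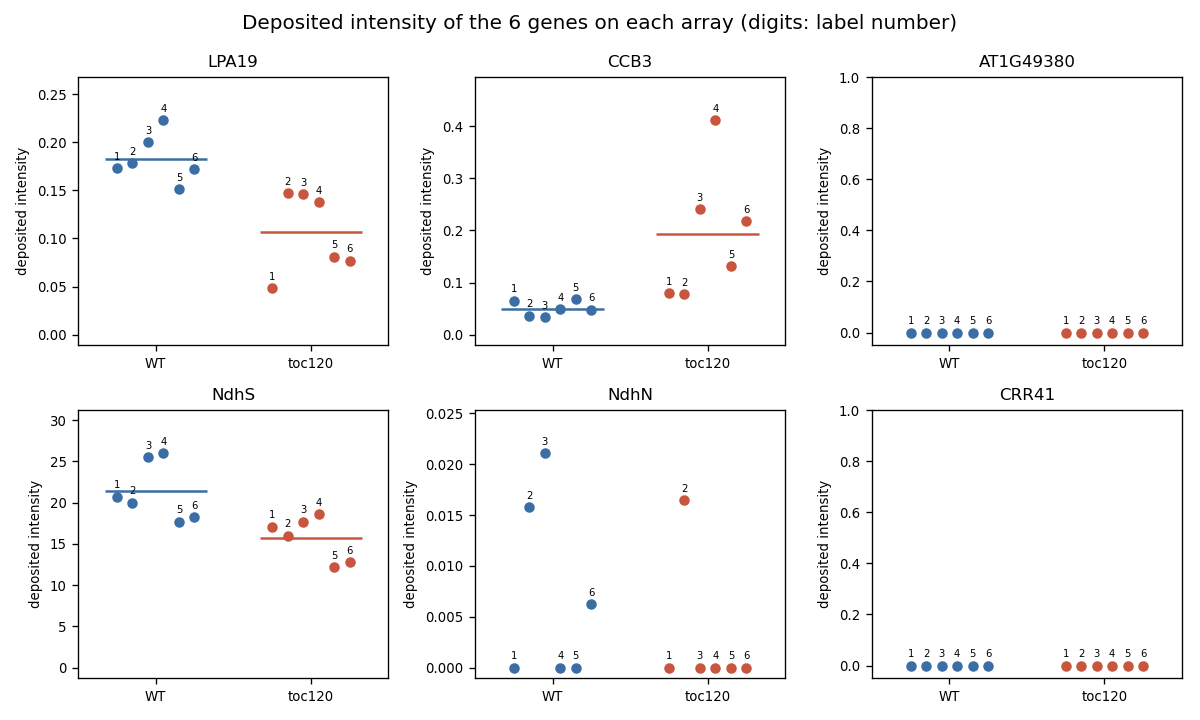
Deposited intensity (linear scale, vertical axis) of the 6 genes on each WT (blue) and toc120 (red) array, with the label number beside each point and, for genes above 0 on all arrays, a line at the mean of the 6 arrays. The toc120 points of LPA19 lie below all WT points and those of CCB3 above them, NdhS overlaps, and AT1G49380 and CRR41 stay at 0.

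LPA19 encodes a protein of the thylakoid lumen that assists the processing of the D1 reaction centre protein while photosystem II is assembled. Its deposited intensity in WT was 0.173, 0.178, 0.2, 0.223, 0.151 and 0.172 on arrays 1 to 6. In toc120 it was 0.0483, 0.147, 0.146, 0.138, 0.081 and 0.0768. All 6 toc120 arrays were below the lowest WT array, a separation in this direction that 6.51% of all probes showed. The margin was narrow, 0.147 against 0.151, and the lowest value came from toc120 array 1, whose neighbour, array 2, read 3.04 times as high. In the other pairs of both genotypes, neighbours differed by 1.03 to 1.14 times.

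After quantile normalisation LPA19 was at 0.231 ± 0.0299 in WT and 0.0898 ± 0.0305 in toc120 (SD, n = 3 pair means each). This is a 2.31-fold fall, a log2 change of -1.21 (SE 0.23, 95% interval -1.80 to -0.62, limma adjusted p = 0.0171). In bulk RNA, fewer cells that express a gene and less of its RNA per cell cannot be told apart. The genotypes did not overlap here either, so the drop appears in 6 of 6 pairings of equal label numbers. The share of all probes without overlap was counted only as deposited, so this lack of overlap has no share beside it. Within the number pairs the drop was -0.99, -1.14 and -1.49. The call did not hold in the values as deposited (log2 change -0.72, or -0.96 relative to the median of all probes, limma adjusted p = 0.0717), where it passed with number pairs as a block (0.0333), or without toc120 array 1 (-1.03, limma adjusted p = 0.0757). It was also lost without numbers 1 and 2 (limma adjusted p = 0.105) or 3 and 4 (0.11), which leaves 2 pair means per genotype. The size depended on the added constant: with 0.24 in place of 0.0261 the fall was 1.43-fold (log2 change -0.52, limma adjusted p = 0.0119).

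With neighbours averaged, 1 of the 6 genes, LPA19, passed. In that fit 31.5% of all probes passed, and 16.9% of all probes passed with a lower level in toc120. With the 12 arrays as separate samples 3 of the 6 passed, CCB3 higher and LPA19 and NdhS lower, against 46.1% of all probes (21.4% higher and 24.8% lower). AT1G49380 and CRR41, listed at 0 on all 12 arrays, could not pass in either fit. Of the 2512 probes above 0 on all 12 arrays, 39.0% passed with neighbours averaged and 56.7% with separate arrays. LPA19, CCB3 and NdhS are among these probes. In the other averaged fits given below, 32.8% to 35.9% of these probes passed. Neither count was tested against these shares. With number pairs fitted as a block, 28.5% of all probes passed, and of the 6 genes again LPA19 alone. With neighbours averaged, 26.1% of probes passed in the values as deposited (20.6% higher and 5.5% lower in toc120), and 0 of the 6 genes did. With the block, 28.3% of probes passed as deposited, and of the 6 genes LPA19 and NdhS. In the unblocked fit LPA19 and CCB3 had an unadjusted p under 0.05. As deposited with 12 separate arrays, LPA19, CCB3 and NdhS passed (limma adjusted p = 0.0156, 0.00704 and 0.0222). There 1564 of all 3439 probes passed too, 1164 higher and 400 lower in toc120. With equal array medians 26.5% passed, and of the 6 genes LPA19 and NdhS.

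**Figure D2:**
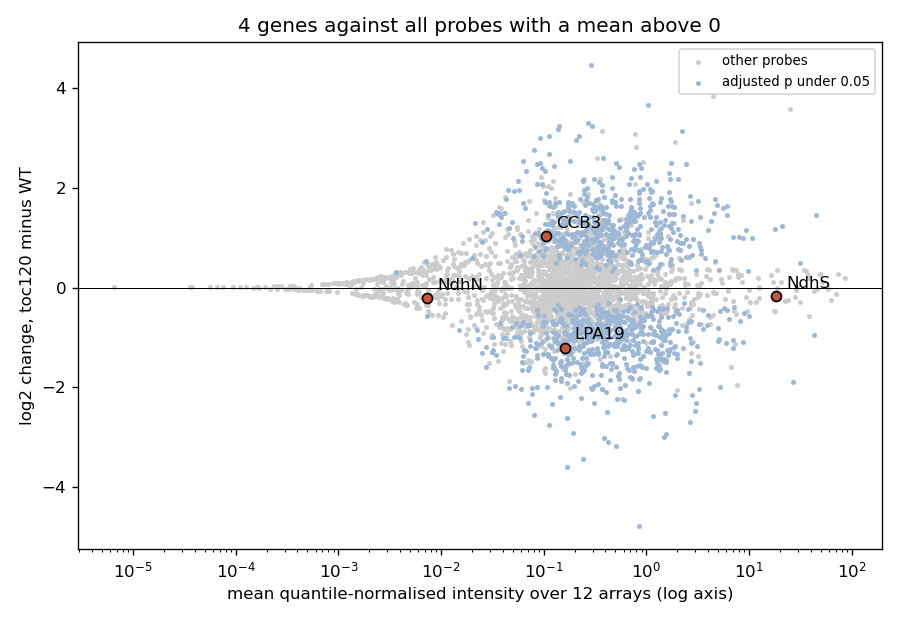
Log2 change between toc120 and WT (vertical axis, neighbours averaged) against the mean quantile-normalised intensity over 12 arrays (horizontal log axis) for all probes with a mean above 0, those with adjusted p under 0.05 in blue. LPA19 at -1.21 lies among the called probes, and CCB3 at 1.03, NdhS at -0.17 and NdhN at -0.21 are the other marked genes.

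CCB3 encodes a thylakoid membrane protein needed to attach a heme covalently to cytochrome b6. In WT its deposited intensity was 0.0649, 0.0363, 0.0333, 0.0486, 0.0681 and 0.0477 on arrays 1 to 6. In toc120 it was 0.0796, 0.0771, 0.241, 0.412, 0.131 and 0.218. All toc120 arrays exceeded all WT arrays, as they did for 22.7% of all probes, but the toc120 arrays ranged from just above WT (arrays 1 and 2) to several times WT (arrays 3 and 4). The mean of the 6 deposited values was 3.88 times as high in toc120. Neighbouring arrays differed by 1.79, 1.46 and 1.43 times in the WT pairs and by 1.03, 1.71 and 1.66 times in the toc120 pairs.

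After quantile normalisation CCB3 was at 0.0577 ± 0.00325 in WT and 0.154 ± 0.0696 in toc120 (SD, n = 3 pair means each). Single WT arrays spread more widely, from 0.0382 to 0.0796. The log2 change was 1.03 (SE 0.29, 95% interval 0.28 to 1.78) and missed the threshold in the averaged fit (limma adjusted p = 0.0535). With 12 separate arrays it passed (limma adjusted p = 0.0058). In the averaged fit it passed without toc120 array 4 (limma adjusted p = 0.0293) or 5 (0.046) and without WT array 1 (0.0463) or 4 (0.0479). The difference was 0.48, 1.56 and 1.05 in the number pairs. It was above 0 in 6 of 6 pairings of equal numbers, which follows from the lack of overlap between genotypes. How many of all probes lacked overlap after quantile normalisation was not counted. With equal array medians the genotypes overlapped and 5 of 6 pairings were higher (log2 change 0.90, limma adjusted p = 0.118). The intensity of CCB3 is low, near the added constant. With a constant of 0.24 instead, the change was 0.38 (limma adjusted p = 0.0883).

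The other cytochrome assembly gene, AT1G49380, was listed at 0 on all 6 WT and all 6 toc120 arrays. A value of 0 in this table may stand for a signal at or below background or for a reading that failed, and the table does not say which. No fold or test is given for it, and its change cannot be set against that of CCB3.

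NdhS encodes a subunit of the NDH complex that takes part in the docking of ferredoxin. Its probe was among the brightest, which says nothing of transcript abundance, at rank 27 to 32 of 3439 in WT and 30 to 32 in toc120. In WT its deposited intensity ran from 17.7 on array 5 through a median of 20.3 to 26.0 on array 4. In toc120 it ran from 12.2 on array 5 through a median of 16.5 to 18.6 on array 4. The genotypes overlapped, and at each of the 6 numbers the toc120 array was below the WT array of that number, by 0.27 to 0.54 on the log2 scale. Neighbouring arrays differed by no more than 1.07 times.

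The size of the NdhS difference depended on how the arrays were scaled. Quantile normalisation gives equal values to equal ranks, and there NdhS was at 19.5 ± 1.59 in WT and 17.2 ± 0.91 in toc120 (SD, n = 3 pair means each). The log2 change was -0.17 (SE 0.085, 95% interval -0.39 to 0.05, limma adjusted p = 0.204). With 12 separate arrays limma's adjusted p was 0.0443, and 0.125 when neighbours were also fitted as a random block. As deposited it was -0.44, or -0.68 relative to the median of all probes (95% interval of the former -0.98 to 0.10, limma adjusted p = 0.193), and this passed once number pairs were fitted as a block (limma adjusted p = 0.0465). With equal array medians it was -1.04 (95% interval -1.67 to -0.41, limma adjusted p = 0.0377), and with the block the adjusted p was 0.0526. The sign was negative under all 3 scalings.

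**Figure D3:**
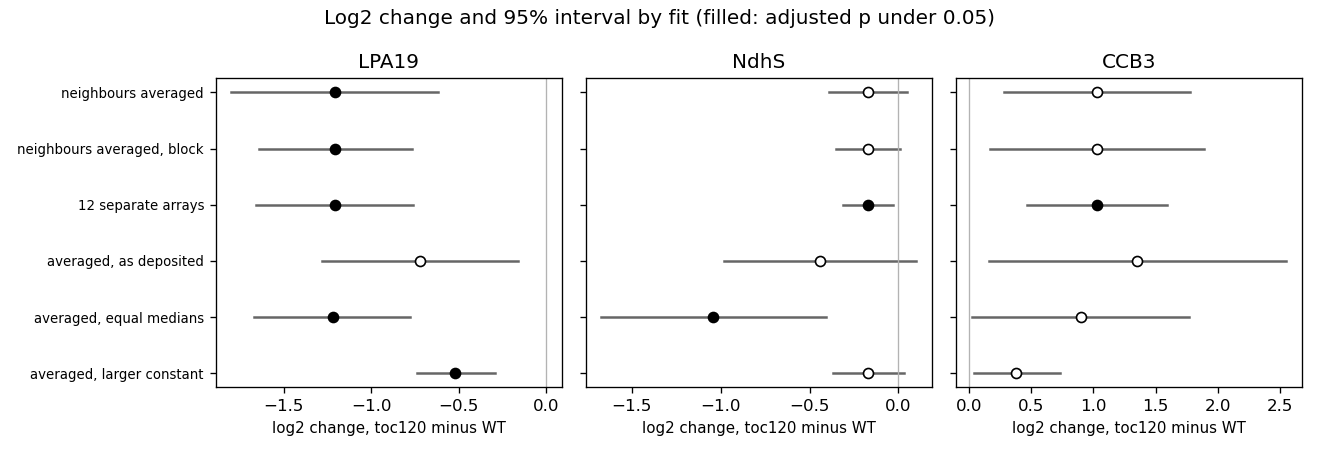
Log2 change between toc120 and WT (horizontal axis) with its 95% interval for LPA19, NdhS and CCB3 under 6 fits (rows), filled points having an adjusted p under 0.05. LPA19 lies below 0 in every row, CCB3 above 0 in every row, and NdhS moves from -0.17 to -1.04 with the scaling.

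NdhN encodes another subunit of the NDH complex, in the same stromal arm as NdhS. In WT it was at 0.0158, 0.0211 and 0.00623 on arrays 2, 3 and 6 and listed at 0 on the other 3. In toc120 it was at 0.0165 on array 2 and listed at 0 on the other 5. No pair of neighbouring arrays had a signal on both members. Its fitted log2 change of -0.21 (95% interval -0.77 to 0.36, limma adjusted p = 0.531) compares values that are mostly the added constant. It was 0.01 without WT array 3 or without numbers 3 and 4. A difference was not detectable at this signal. CRR41, an assembly factor of the same arm of the complex, was listed at 0 on all 12 arrays and has no value for toc120.

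The changes of the 3 genes above 0 were also set against each other, a comparison chosen after their values were seen. The log2 change of CCB3 exceeded that of LPA19 by 2.24 ± 0.67 (SD over 3 number pairs) after quantile normalisation and by 2.08 ± 0.78 as deposited, where a shared factor on an array nearly cancels. It exceeded that of NdhS by 1.2 ± 0.56 and 1.8 ± 1.05. LPA19 and NdhS, both lower in toc120, differed by -1.04 ± 0.31 after quantile normalisation but by -0.28 ± 0.27 as deposited and -0.19 ± 0.31 with equal array medians. The exact two-sided permutation test of 3 against 3 pair means gave p = 0.1 for all 3 differences after quantile normalisation (0.1 adjusted over the 3), the smallest it can give. As deposited, the same exact permutation test gave p = 0.1 for both differences with CCB3 (0.15 adjusted) and p = 0.2 for LPA19 against NdhS (0.2 adjusted).

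The genes around these 6 were thinly covered. Of 89 listed loci for NDH subunits and assembly, photosystem and cytochrome assembly, ATP synthase assembly and thylakoid protein targeting, 12 have a 1-gene probe, the 6 genes included, and 6 lie only on probes shared by several genes. Of the other 6 loci with a 1-gene probe, 1 was lower, 0 were higher and 5 were not called, in the averaged fit and with 12 separate arrays alike. Of all probes, 16.9% and 24.8% were called lower in these fits. The median log2 change of these 6 was -0.30, beside 0 for all probes, and was not tested. The 6 include AT3G29185, which was at 0 on most arrays. As deposited, PSB27, AT1G54500, AT1G22700 and AT2G27290 had the opposite sign, where the median of all probes was 0.23.

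The photosystem II assembly list has 3 measured loci of 26: LPA19 and AT1G54500 were lower in toc120 and PSB27 did not pass. In this fit 16.9% of all probes were called lower. Of the probes above 0 on all 12 arrays, as these 3 were, 39.0% passed in either direction. The count was not tested against these shares. AT1G54500 was at 0.794 ± 0.0594 in WT and 0.601 ± 0.0661 in toc120 (SD, n = 3 pair means), a log2 difference of -0.40 (limma adjusted p = 0.0432, and 0.117 with the block). As deposited it was at 0.06, or -0.17 relative to the median of all probes (limma adjusted p = 0.878). Its call was also lost with equal array medians (-0.51, limma adjusted p = 0.0648), with dim probes left out (0.0944), and without toc120 array 4 (0.196), toc120 array 5 (0.0568) or WT array 3 (0.0601). PSB27, a lumenal photosystem II assembly protein of the same family as LPA19, was at -0.38 on the log2 scale (limma adjusted p = 0.488) and at 0.01 as deposited, or -0.22 relative to the median of all probes.

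On the photosystem I assembly list the 1 measured locus of 7, AT1G22700, was at -0.32 (limma adjusted p = 0.418) and at 0.17 as deposited, or -0.06 relative to the median of all probes. On the cytochrome assembly list of 10 loci, AT2G27290 was the third with a 1-gene probe, beside CCB3 and AT1G49380 (listed at 0 on every array). It was at 0.32 (limma adjusted p = 0.465), at -0.05 as deposited (-0.29 relative to the median) and at -0.65 with equal array medians (-0.61). On the ATP synthase assembly list 1 locus of 5 has a 1-gene probe, AT3G29185. It stood at 0 on 4 arrays of WT and 5 of toc120 and did not pass (limma adjusted p = 0.225). The cytochrome b6f subunit and thylakoid targeting lists, of 2 and 11 loci, had no 1-gene probe.

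Among NDH genes, 2 of 20 subunit loci (NdhS and NdhN) and 2 of 8 assembly loci (CRR41 and Cpn60beta4) had a 1-gene probe. CRR41 was listed at 0 on every array. Cpn60beta4 encodes a chaperonin subunit that is needed to fold a plastid-encoded NDH subunit. Its deposited intensity in WT was 0.0594, 0.0474, 0.0291, 0.0186, 0.0406 and 0.0382 on arrays 1 to 6, and in toc120 it was 0.017, 0.0235, 0.0901, 0.12, 0.231 and 0.187. The toc120 arrays 1 and 2 were below their WT counterparts and arrays 3 to 6 above them. The fitted log2 change of 0.63 (95% interval -0.62 to 1.88, limma adjusted p = 0.403) averages differences of -0.57, 0.65 and 1.81 in the number pairs.

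**Figure D4:**
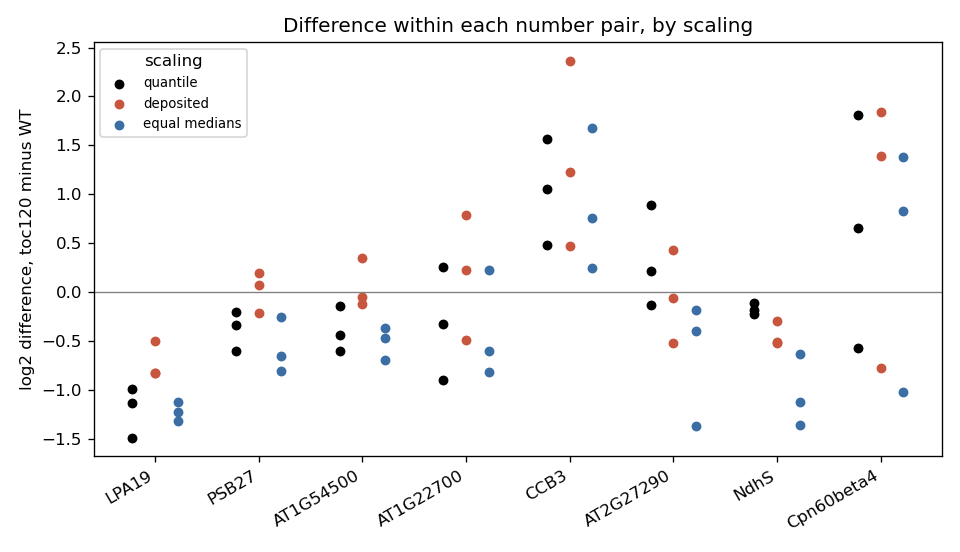
Log2 difference between toc120 and WT (vertical axis) within each of the 3 number pairs, 1 point per pair, for the 8 genes above 0 on all arrays under 3 scalings (colours). Each point of LPA19 and NdhS lies below 0 and each of CCB3 above 0 under all 3 scalings, while the pairs of Cpn60beta4 lie on both sides of 0.

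The genes whose profiles lay closest to each of the 3 measured members were found among the other 494 1-gene probes above 0 on every array, by the root mean square difference of log2 values centred on each probe's own mean over 12 arrays. This measure includes the genotype difference, so the choice itself favours genes with a like change, and the changes given for them are a description. For LPA19 these were AT3G15140 (0.22) and AT5G03900 (0.28), where the median of all candidates was 0.78. Their log2 changes were -1.15 and -1.32. For CCB3 they were AT3G57570 (0.29, log2 change 1.12) and AT5G42680 (0.31, log2 change 0.77), with a median of 0.74 over candidates. For NdhS, whose profile was nearly flat after quantile normalisation, they were AT4G22490 (0.10, log2 change -0.17) and AT4G22830 (0.11, log2 change -0.03).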

How the data were processed

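The values used are intensities deposited by the authors, 1 table of 3439 probes by 12 arrays. The sources used here do not state the array type or how background and scale were treated. Precision is limited by the number of arrays. Probe names come from GEO's platform annotation, which can be old, and through TAIR10.1 locus tags: 692 probes have 1 gene (690 with a locus), 870 several and 1877 none. Coordinates are not given because the build behind the probes is unknown.

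Arrays were quantile-normalised, 0.0261 (the 5th percentile of positive values) was added before taking log2, neighbouring numbers were averaged, and toc120 was compared with WT with a linear model and moderated variances (limma 3.58.1, R 4.3.3). P-values are two-sided, and the Benjamini-Hochberg correction ran over all probes with a threshold of 0.05. The fit was also run on simulated log2 values, which skipped the normalisation and changed a far smaller share of probes than passed here. That run does not show the rate of false calls in these data. Figures used matplotlib 3.10.9 in Python 3.11.15. Spearman's rho between arrays, across probes, was 0.952 to 0.975 for neighbours, 0.91 to 0.946 for other arrays of a genotype and 0.806 to 0.859 between genotypes. This grouping comes from the data, not from the labels.

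Deviations from the genotype mean correlated between equal numbers of the genotypes. The r was 0.217 to 0.348 over single arrays and 0.233 to 0.38 over number pairs. The labels do not state a pairing, so the main fit left it out and a replicate block was an alternative. Other alternatives were separate arrays, scaling, the constant, a filter on dim probes and leaving out arrays. Named genes are the 6 members, measured loci of the pathway lists and the 2 closest profiles of each member above 0 on all arrays. Closest profiles were not sought for NdhN, AT1G49380 and CRR41, and the planned differences between NdhN and NdhS and between CCB3 and AT1G49380 were not computed, because of the zeros. The members and lists were chosen with earlier results of these data known.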

Additional observations from a re-analysis of the deposited data

Results flagged for a closer look

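In 3 of 32 groups of 6 arrays, for the named genes and after quantile normalisation, the gap between 1 array and the nearest other was a larger part of the group's range than Dixon's 95% critical value for 6 samples. Chance alone marks about 1 group in 20 where values vary continuously, which does not hold for groups mostly at 0. For NdhN, toc120 array 2 was at 0.0275 and the other 5 toc120 arrays at 0. For AT3G29185, toc120 array 6 was at 0.00143 and the other 5 at 0. In both of these groups the gap is the whole range, however small the single value. For AT3G57570, 1 of the profiles closest to CCB3, WT array 4 was at 0.79 and the other WT arrays at 0.548 to 0.612.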

How the results depend on the processing

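LPA19 was lower in toc120 under all alternatives run. Its call was lost as deposited (log2 change -0.72), without toc120 array 1 (-1.03), and without numbers 1 and 2 (-1.32) or 3 and 4 (-1.24). Its range over all omissions was -1.39 to -1.03, and with the larger constant it was -0.52 and passed. CCB3 was higher under all alternatives run. It passed at 1.03 with 12 separate arrays, also with neighbours as a random block (limma adjusted p = 0.0359) or with the replicate block (0.0175), and with dim probes left out (0.0263). With 12 separate arrays it also passed as deposited (1.35) and with equal medians (0.90). It ranged from 0.92 to 1.14 without single arrays and from 0.77 to 1.30 over all omissions, and passed in 4 of 15. NdhS was lower throughout. It passed at -0.17 with 12 separate arrays, without and with the replicate block (limma adjusted p = 0.0443 and 0.0208). With neighbours as a random block NdhS did not pass (limma adjusted p = 0.125). It also passed at -1.04 with equal array medians, averaged or separate. As deposited, at -0.44, it passed with separate arrays (limma adjusted p = 0.0222) or with averaged values and the replicate block (0.0465). NdhN ranged from -0.42 to 0.01 over the omissions, above 0 without WT array 3 and without numbers 3 and 4.

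Of all probes, 1084 passed with neighbours averaged and 1688 with 12 separate arrays and the replicate block. The count ran from 331 to 1087 over the omissions, the lowest 3 (633, 331 and 487) leaving out numbers 1 and 2, 3 and 4, or 5 and 6, where 2 pair means per genotype remain. As deposited, PSB27 (0.01), AT1G54500 (0.06), AT1G22700 (0.17) and AT2G27290 (-0.05) had the opposite sign, as did AT2G27290 with equal medians (-0.65). The median of all probes was 0.23 as deposited, and relative to it PSB27 (-0.22), AT1G54500 (-0.17) and AT1G22700 (-0.06) were below 0 as after quantile normalisation, while AT2G27290 (-0.29) was not above it. The replicate block on averaged values ended the call of AT1G54500. So did equal array medians (limma adjusted p = 0.0648), leaving out dim probes (0.0944), and leaving out toc120 array 4 (limma adjusted p = 0.196), toc120 array 5 (0.0568), WT array 3 (0.0601) or any number pair (0.0796 to 0.212). No other call of a named gene from the pathway lists changed with the replicate block on averaged, quantile-normalised values. With 12 separate arrays and the replicate block, PSB27 passed (0.0158). Values of 0 and low signal limit what can be said of NdhN, AT1G49380, CRR41 and AT3G29185. Alternatives added after the data were seen are the scalings combined with separate arrays or with the block, and all differences between genes.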
